A study of Mus musculus with 1 sample.

Results

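The granins and the enzymes that process prohormones were followed through the cell classes of the postnatal mouse adrenal. The members were taken by name as the 10 rows of the gene table with the symbols Chga, Chgb, Scg2, Scg3, Scg5, Vgf, Pcsk1n, Pcsk1, Pcsk2 and Cpe, out of 32285 genes. The data came from 5 mice of both sexes at postnatal day 15, for which the study names no altered allele and no treatment. Their 10 adrenals were trimmed of much of the cortex, and the cells were pooled into 1 droplet library in which transcripts were counted per cell. The authors recovered 11214 barcodes with 51421499 UMIs, of which 10139 passed the quality limits with a median of 3567 UMIs, and 9350 of these fell into a named class. Mice of the study were kept on mixed backgrounds and backcrossed to CD1. Nothing in the counts tied a cell to its animal, so that no spread between mice could be measured and no difference could be tested.

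Granins are acidic proteins that are packed with catecholamines and peptides into the dense-core granules of chromaffin cells, and several of them are themselves cut into bioactive peptides. Prohormones are cut at pairs of basic residues by the endoproteases encoded by Pcsk1 and Pcsk2, and the basic residues left at the new ends are then removed by carboxypeptidase E, encoded by Cpe. Both endoproteases have a small granin-like partner, Pcsk1n for the first and Scg5 for the second, which can hold the enzyme inactive. In the adrenal these proteins are best known as markers of the neuroendocrine cells of the medulla.

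The cAMP response element TGACGTCA, a site bound by CREB, was searched on both strands of the promoter windows of RefSeq (GRCm38.p6), which run from 250 bases before to 50 bases after each start site. A window was given for 8 of the 10 members, all but Vgf and Cpe. The element stood in 3 of the 8, those of Chgb, Scg2 and Pcsk1, whereas 1.79% of all 32851 windows held it. The window of Chga held a variant that ends in AA, TGACGTAA, which was searched only after the sequence had been seen and stood in 0.499% of all windows. The other motif searched, TGACGCAA, was in none of the 8 and in 0.49% of all windows. The stretches that hold a match are given because the 4 genes include the 3 most abundant granins. They run from base -120 to base -31 of the start site, 5′ to 3′ on the strand of the gene, with the match in capitals.
Chga, chr12:102554821-102554910, plus strand: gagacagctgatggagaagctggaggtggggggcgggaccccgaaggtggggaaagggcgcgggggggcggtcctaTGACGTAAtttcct
Chgb, chr2:132781522-132781611, plus strand: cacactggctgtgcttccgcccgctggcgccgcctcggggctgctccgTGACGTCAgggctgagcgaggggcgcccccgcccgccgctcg
Scg2, chr1:79440057-79440146, minus strand: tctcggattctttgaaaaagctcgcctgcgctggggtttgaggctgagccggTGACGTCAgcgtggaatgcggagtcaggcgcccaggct
Pcsk1, chr13:75089737-75089826, plus strand: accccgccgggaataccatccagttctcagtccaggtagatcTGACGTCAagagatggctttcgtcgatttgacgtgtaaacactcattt
The match began 44 bases before the start site of Chga, 72 before that of Chgb, 68 before that of Scg2 and 78 before that of Pcsk1. The variant in Chga lay on the strand of the gene, whereas TGACGTCA reads the same on both strands. A match in these letters describes the sequence and shows no binding. By the GENCODE annotation, which has longer transcripts of some genes, the stretch of Chgb lies inside the gene. That of Scg2 begins outside its gene, but its match lies inside. The stretch of Pcsk1 reaches only the first base of its gene, with the match outside, and that of Chga lies outside.

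Cells were grouped by unsupervised clustering in which the members and their companion genes were left out of the variable features, and clusters were named from marker lists that held no granin. This gave 1672 adrenaline chromaffin-like cells in 3 clusters, 379 noradrenaline chromaffin-like cells, 90 cycling chromaffin-like cells, 92 transitioning adrenaline-like and 326 transitioning noradrenaline-like cells, which carried chromaffin and sustentacular markers together, and 177 sustentacular-like cells. Outside the medulla, 3718 cortex-like, 2152 endothelial-like, 655 immune-like and 89 fibroblast-like cells were named. A chromaffin or transitioning cluster was named adrenaline where at least 50% of its cells had a Pnmt UMI, and noradrenaline otherwise. Pnmt, which converts noradrenaline to adrenaline, was detected in 96.0% of the adrenaline and in 15.3% of the noradrenaline cells. This difference follows from the naming and is no separate evidence for the types. Median depth ran from 1143 UMIs in sustentacular-like cells to 6492.5 in transitioning adrenaline-like cells. The leading genes of a cluster are those with the highest fold over all other cells that passed the quality limits. For the shallow sustentacular-like cluster, 3 sustentacular markers (Scn7a, Col28a1, Kcna1) were among the leading 10 genes. Levels are given as CPM, the UMIs of a gene summed over the cells of a class per 1000000 UMIs of that class. As UMIs count the ends of transcripts, levels of different genes were compared without a correction for length. Intervals are exact 95% intervals (Poisson for a level, Clopper-Pearson for a share, conditional binomial for a ratio) and cover counting error only.

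Together the 10 members made up 8.94% of all UMIs in adrenaline cells (interval 8.92 to 8.96) and 8.02% in noradrenaline cells (7.97 to 8.07). The share was lower in the other cells with chromaffin markers, at 6.09% in cycling chromaffin-like, 4.88% in transitioning noradrenaline-like and 4.75% in transitioning adrenaline-like cells. In single adrenaline cells the share ran from 5.62% at the 10th percentile over a median of 8.94% to 13.2% at the 90th, and in noradrenaline cells from 3.96% over 7.32% to 12.1%, so that both types overlapped widely in the total. The share was 0.359% in sustentacular-like, 0.0392% in cortex-like and 0.0318% in endothelial-like cells. Immune-like and fibroblast-like cells stood at 0.43% and 0.365%, but these sums came from few cells. The 66 immune-like cells richest in members held 97.6% of the 6130 member UMIs of that class, and the median immune-like cell held none. Without the 75 immune-like cells that Scrublet called doublets (11.5% of the class), Chga was at 113 CPM there in place of 993. When all called doublets were left out before clustering, the members made up 0.0517% of the UMIs of immune-like cells.

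**Figure D1:**
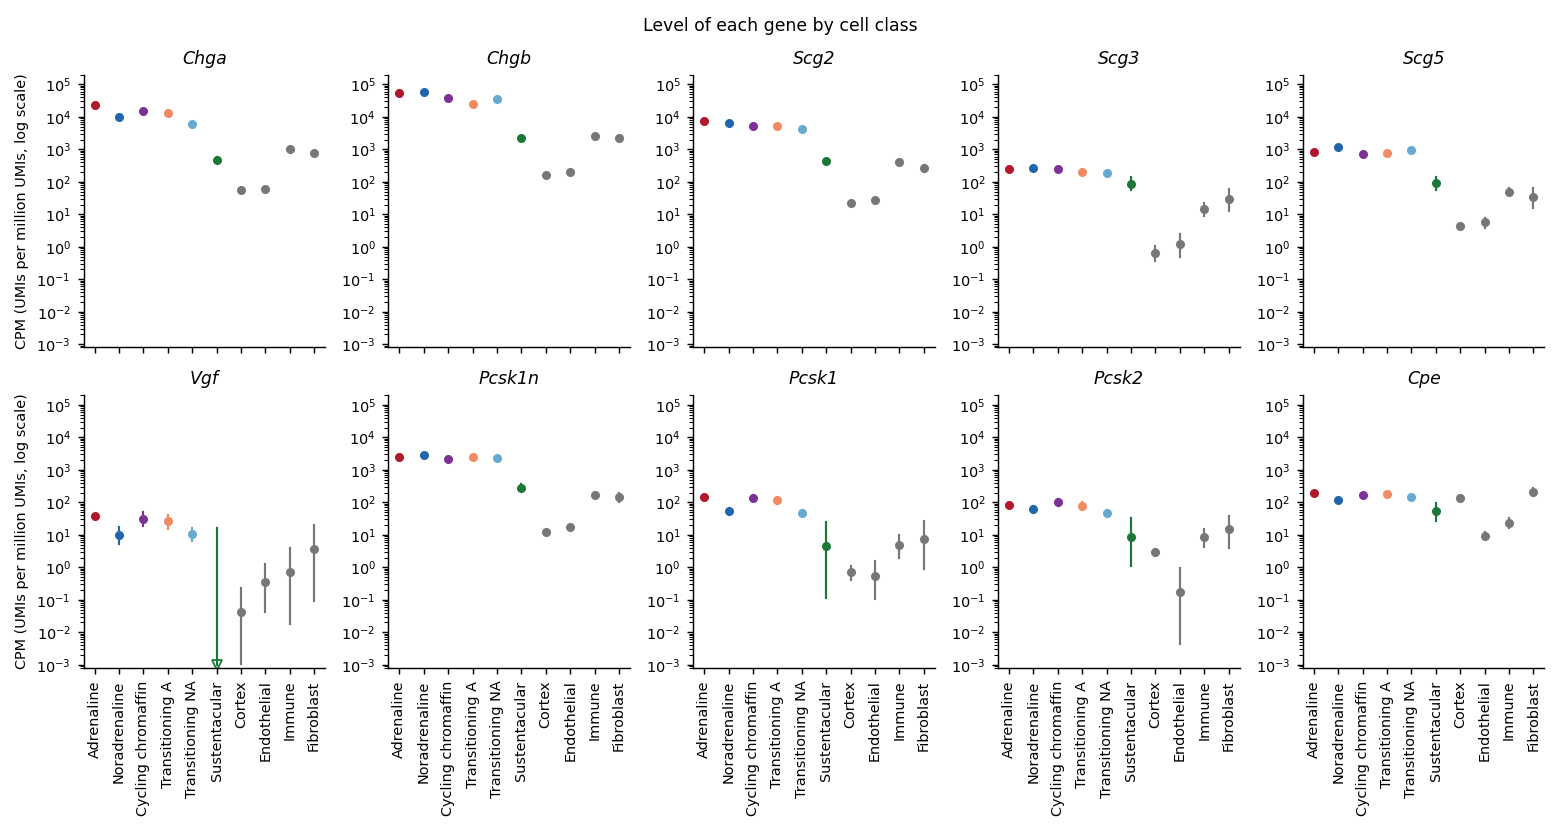
Level of each of the 10 genes (CPM, log scale) in the 10 cell classes of the single library; points are sums over cells and lines exact 95% counting intervals, and the open triangle marks the class with 0 UMIs of Vgf. Chga, Chgb and Scg2 are far lower in sustentacular, cortex and endothelial cells than in the chromaffin classes, whereas Cpe stands at 137 in cortex and 208 in fibroblast cells.

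The classical granins Chgb, Chga and Scg2 were among the 15 most abundant genes of each class with chromaffin markers. Chgb (chr2:132781278-132795079), which encodes chromogranin B, was the most abundant gene of adrenaline cells at 54579 CPM (54410 to 54748) and ranked 2 in noradrenaline cells at 59234 (58816 to 59654). It stood at 37285 in cycling chromaffin-like cells, 34836 in transitioning noradrenaline-like and 25358 in transitioning adrenaline-like cells. A UMI of Chgb was found in every cell of these 5 classes. Sustentacular-like cells had 2169, the same value as fibroblast-like cells (ratio 1, interval 0.885 to 1.13), and endothelial-like and cortex-like cells had 196 and 156. Without called doublets (8 endothelial-like and 92 cortex-like cells) these levels were 115 and 129, so that the order of the pair turned. A Chgb UMI was present in 15.5% of endothelial-like cells and 20.5% of cortex-like cells, at median depths of 2009.5 and 5350.5 UMIs, and thinned to 1000 UMIs a cell the shares were 7.27% and 5.68%. The part of free RNA and of doublets in these shares was not tested.

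Chga (chr12:102554969-102565028), the gene of chromogranin A and the usual marker of chromaffin cells, ranked 3 in adrenaline cells with 23578 CPM (23467 to 23690). The order went down over cycling chromaffin-like cells (14856), transitioning adrenaline-like cells (13159) and noradrenaline cells (9986) to transitioning noradrenaline-like cells (6168), and each step was larger than its counting interval. Its level thus ordered the classes by type, with both adrenaline-type classes above both noradrenaline-type classes. It was detected in all adrenaline cells and in 99.5% of noradrenaline cells. Sustentacular-like cells had 468 and a UMI in 14.1% of cells, while endothelial-like and cortex-like cells had 60.2 and 55.6, which did not differ beyond counting error (ratio 1.08, 0.959 to 1.22). Immune-like and fibroblast-like cells lay above the sustentacular-like level, at 993 and 782. Without called doublets these 2 classes were at 113 and 736, with fibroblast-like cells still above.

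Scg2 (chr1:79434669-79440120), whose product secretogranin II is the precursor of secretoneurin, ranked 8 in adrenaline cells at 7234 and 9 in noradrenaline cells at 6532 CPM. It followed with 5176 in transitioning adrenaline-like and 5119 in cycling cells, which did not differ beyond counting error, and 4091 in transitioning noradrenaline-like cells. Scg3 (chr9:75643189-75684056), which encodes a granin that binds chromogranin A at the granule membrane, was far less abundant. Its 5 chromaffin-marker classes lay between 187 and 260 CPM, and no neighbours in that order differed beyond counting error. Vgf (chr5:137026392-137033351), the precursor of several neuropeptides, was the rarest member, with 36.6 CPM in adrenaline cells from 269 UMIs and 10.0 in noradrenaline cells from 13 UMIs. Even in the class where it was highest, Vgf was seen in a minority of cells (12.7%). No Vgf UMI was found in the 177 sustentacular-like cells, where a count of 0 allows up to 13.3 CPM (3 counts, a one-sided limit, where the exact interval reaches 16.3).

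UMIs of the inhibitor transcripts outnumbered those of their enzymes in adrenaline and noradrenaline cells, and protein was not measured. Pcsk1n (chrX:7919822-7924410), the precursor of the inhibitor of the first convertase, had 2474 CPM in adrenaline and 2782 in noradrenaline cells and was detected in 99.2% and 99.5% of them. Transitioning adrenaline-like (2433), transitioning noradrenaline-like (2311) and cycling cells (2197) lay below, with no step between these neighbours larger than counting error. Scg5 (chr2:113776362-113829121), chaperone and inhibitor of the second convertase, had 1162 in noradrenaline, 969 in transitioning noradrenaline-like and 845 in adrenaline cells. Pcsk1 (chr13:75089826-75134861) had 147 and 53.9 CPM in adrenaline and noradrenaline cells, and Pcsk2 (chr2:143546156-143816285) had 79.9 and 60.1. A UMI of Pcsk1 was seen in 37.9% of adrenaline and 15.3% of noradrenaline cells, against 0.139% of endothelial-like cells. For Pcsk2 these shares were 27.1%, 16.6% and 0.0465%. Thinned to 1000 UMIs, which left out 12 adrenaline and 23 noradrenaline cells, the shares with Pcsk1 were 11.9% (10.4 to 13.6) and 3.65% (1.96 to 6.16). Those with Pcsk2 were 7.29% (6.08 to 8.65) and 4.78% (2.81 to 7.54), whose intervals overlap. Pcsk1 outnumbered Pcsk2 by 1.83 times (1.66 to 2.03) in adrenaline cells, while in noradrenaline cells 70 UMIs of Pcsk1 stood against 78 of Pcsk2, a ratio of 0.897 (0.64 to 1.26). Scg3, Pcsk1n and Pcsk2 overlap annotated genes on the opposite strand, and the sources used here do not state whether counting used strand.

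Adrenaline and noradrenaline cells are the chromaffin types that the study separates, and the members were compared between them by a size rule of 2-fold. Chga and Pcsk1 were at least 2-fold higher in adrenaline cells, and no member was 2-fold higher in noradrenaline cells. Vgf was also past 2-fold, but it lay below the level filter of 20 CPM in noradrenaline cells and passed it only through the adrenaline cells, so that it is given for its value and not counted. Among the 5972 genes with a pooled level of at least 20 CPM, 4.66% were 2-fold higher in adrenaline cells and 3.42% were 2-fold lower. The median log2 ratio was 0.28 over the 10 members with Vgf included, and -0.01 over all these genes. With Vgf left out, the middle member was Scg2, at a ratio of 1.11. Chga was 2.36 times higher in adrenaline cells (2.32 to 2.40), Pcsk1 was 2.72 times higher (2.13 to 3.51) and Vgf 3.66 times higher (2.10 to 6.96). Cpe followed at 1.59 (1.35 to 1.89), Pcsk2 at 1.33 (1.05 to 1.71) and Scg2 at 1.11 (1.08 to 1.13). On the other side, Scg5 was lower in adrenaline cells by a ratio of 0.727 (0.687 to 0.77), Pcsk1n by 0.889 (0.858 to 0.922) and Chgb by 0.921 (0.914 to 0.929). Scg3, at 0.923 (0.821 to 1.04), did not differ beyond counting error. Over all adrenaline cells, the enzyme Pcsk1 and its inhibitor Pcsk1n lay on opposite sides of 1, and so did Pcsk2 and Scg5. In the shallower of the adrenaline clusters described below, Pcsk1n was at 1.23, on the same side as Pcsk1. When the transitioning noradrenaline-like cells were joined to the noradrenaline cells, a setting added after the data had been seen, the ratio of Chgb turned to 1.22. When each cell was classed from its own marker UMIs without clusters, the ratio of Chga was 1.98 and missed the rule.

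**Figure D2:**
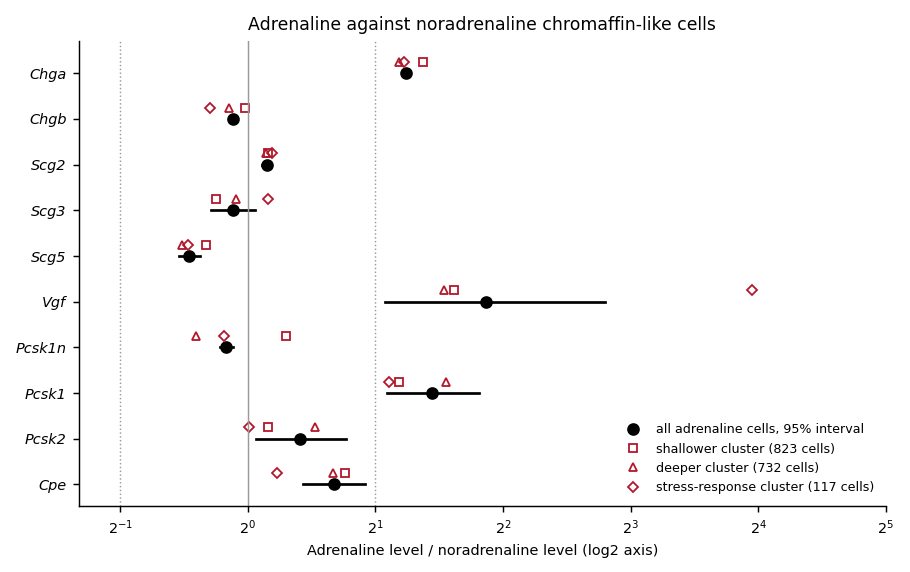
Ratio of the level in adrenaline over noradrenaline chromaffin-like cells for each gene on a log2 axis; filled circles are all 1672 adrenaline cells with the exact 95% counting interval, open symbols each adrenaline cluster on its own, and dotted lines mark 2-fold. Chga, Vgf and Pcsk1 lie right of the dotted line at 2, with every adrenaline cluster on the same side, while the open symbols of Pcsk1n fall on both sides of 1.

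The balance of Chga and Chgb could also be read in single cells. Among cells with at least 20 UMIs of the pair, Chga made up a median of 31.3% of Chga and Chgb UMIs in adrenaline cells, with 23.1% at the 10th and 44.8% at the 90th percentile. In noradrenaline cells the median was 14.8%, from 7.71% to 24.7%. The 90th percentile of noradrenaline cells thus lay above the 10th of adrenaline cells, while the ranges from the 25th to the 75th percentile were apart, at 26.9 to 37.2% in adrenaline and 10.6 to 19.6% in noradrenaline cells. The 67 adrenaline cells without a Pnmt UMI had a median of 28.0%, below that of the whole class, and the 57 noradrenaline cells with one had 16.4%. Transitioning cells were close to the chromaffin type named by the same Pnmt rule, with medians of 35.9% in transitioning adrenaline-like and 15.2% in transitioning noradrenaline-like cells. Within the latter, the 96 cells with a Pnmt UMI that reached 20 UMIs of the pair had a median of 20% and the 222 such cells without had 13.0%. The median depths of all cells with and without a Pnmt UMI were 4404.5 and 4664 UMIs. Cycling chromaffin-like cells, of which 91.1% had a Pnmt UMI, had a median of 30.1%.

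**Figure D3:**
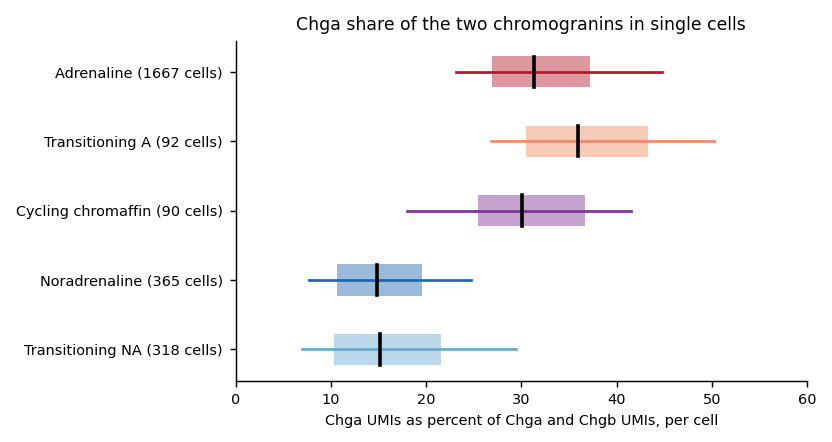
Chga UMIs as a percentage of Chga and Chgb UMIs in single cells with at least 20 UMIs of the pair; black ticks are medians, boxes span the 25th to 75th percentile and lines the 10th to 90th, over cells of 1 library. The adrenaline, transitioning adrenaline and cycling groups centre between 30.1 and 35.9%, and the noradrenaline and transitioning noradrenaline cells at 14.8 and 15.2%.

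Transitioning cells were named for carrying markers of both sustentacular and chromaffin cells. As a share of all UMIs, the abundant granins were lower in them than in the chromaffin type named by the same Pnmt rule. In transitioning noradrenaline-like cells Chgb was at 0.588 of the noradrenaline level (0.582 to 0.594), Chga at 0.618, Scg2 at 0.626 and Scg3 at 0.718 (0.617 to 0.837). Scg5 and Pcsk1n were closer, at 0.834 and 0.831, and the ratios of Pcsk1, Pcsk2, Cpe and Vgf did not differ from 1 beyond counting error. No member passed 2-fold, against 3.94% of the 6190 genes tested in either direction. The transitioning adrenaline-like cells had Chgb at 0.465 of the adrenaline level (0.458 to 0.472), the only member past 2-fold, against 2.02% of all genes either way. Chga was at 0.558 and Scg2 at 0.716 there, while Pcsk1n, at 0.984 (0.935 to 1.03), Scg5, at 0.918 (0.838 to 1.00), and the convertase Pcsk2, at 0.952 (0.703 to 1.27), were not distinguishable from the adrenaline level. The other convertase, Pcsk1, was lower at 0.789 (0.62 to 0.993). Sox10, the defining glial transcription factor, had 68.0 and 52.7 CPM in the transitioning noradrenaline-like and transitioning adrenaline-like cells, 384 in sustentacular-like and 0 UMIs in adrenaline cells. Scrublet called 2 of the 326 and none of the 92 transitioning cells doublets. Transitioning noradrenaline-like cells were deeper than noradrenaline cells (median 4634 against 2650 UMIs), and transitioning adrenaline-like cells deeper than adrenaline cells (6492.5 against 3164). Before scaling, Chgb had 65551 UMIs in the 326 transitioning noradrenaline-like and 76871 in the 379 noradrenaline cells. It had 17322 in the 92 transitioning adrenaline-like and 400822 in the 1672 adrenaline cells. The part of depth and of mixed droplets in these levels was not tested.

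The same granins were a lower share of all UMIs in cycling chromaffin-like cells. Against all non-cycling chromaffin-like cells, Chgb was at 0.675 (0.665 to 0.684), Chga at 0.69 (0.675 to 0.705) and Scg2 at 0.718 (0.692 to 0.745). Scg5 (0.809) and Pcsk1n (0.872) were closer to the non-cycling level. Scg3, Vgf, Pcsk1, Pcsk2 and Cpe had ratios between 0.885 and 1.30 with intervals that include 1. No member passed 2-fold here, where 4.91% of 5992 genes did in either direction. Cycling cells were deeper, at a median of 5550.5 UMIs against 3164 in adrenaline and 2650 in noradrenaline cells. Before scaling, Chgb had 21617 UMIs in the 90 cycling cells, 400822 in the 1672 adrenaline and 76871 in the 379 noradrenaline cells. The part of depth in these ratios was not tested.

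The adrenaline cells fell into a shallower cluster of 823 cells (median 2296 UMIs), a deeper cluster of 732 cells (5625.5) and a cluster of 117 cells (2705) that was led by stress-response genes such as Atf3, Egr3, Dnajb1 and Fosb. Vgf separated the third cluster from the others. It had 155 CPM there (119 to 198) against 30.7 in the shallower and 29.1 in the deeper cluster, which is 5.23 times the level of both together (3.89 to 6.96). A Vgf UMI was found in 41 of the 117 cells (35.0%), in 7.05% of the shallower and in 15.6% of the deeper cluster, and thinned to 1000 UMIs in 15.4% (9.38 to 23.2), 3.21% (2.10 to 4.66) and 2.73% (1.68 to 4.19). Vgf was the only member past 2-fold in that cluster, where 4.09% of 5913 genes passed either way. It was among the leading 10 genes of the cluster, which were ranked against all other passing cells and not against the adrenaline clusters alone. Chga and Pcsk1n were likewise among the leading 10 of the shallower cluster, and Chga among those of the deeper cluster. Vgf had been left out of the variable features. Without the stress-response cluster Vgf was still higher than in noradrenaline cells, by 3.07 times in the shallower and 2.91 times in the deeper cluster.

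Among the members, the shallower and the deeper cluster differed most in Pcsk1n, which had 3420 CPM in the shallower cluster, 2096 in the deeper and 2450 in the stress-response cluster. The convertases lay the other way, with Pcsk1 at 123 and 159 and Pcsk2 at 67.02 and 86.7 in the shallower and the deeper cluster. The shallower cluster against the other adrenaline cells had ratios of 1.61 (1.56 to 1.66) for Pcsk1n, 0.792 (0.684 to 0.915) for Pcsk1 and 0.791 (0.647 to 0.962) for Pcsk2. Chga and Chgb were 1.14 and 1.10 times higher there. No member passed 2-fold in this comparison, where 0.964% of genes did, nor in that of the deeper cluster, where 0.558% did. Pcsk1n was higher in the shallower cluster than in noradrenaline cells, by 1.23 times, and lower in the others. Depth differed between these clusters as well, and its part in the levels was not tested.

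**Figure D4:**
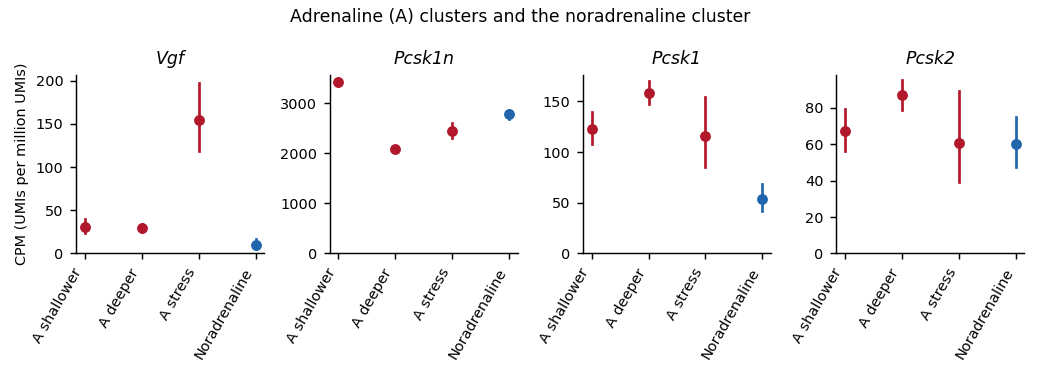
Levels of Vgf, Pcsk1n, Pcsk1 and Pcsk2 (CPM, axes from 0) in the shallower, the deeper and the stress-response adrenaline cluster and in the noradrenaline cluster, with exact 95% counting intervals. Vgf stands at 155 in the stress-response cluster and near 30 in the other adrenaline clusters, and Pcsk1n and the convertases run in opposite order between the shallower and the deeper cluster.

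In sustentacular-like cells the levels of the members were set against those of the non-cycling chromaffin-like cells, where 24.9% of 6001 genes were 2-fold lower. Each of the 10 members had a ratio under 0.5, but Vgf (0 UMIs), Pcsk1 (1 UMI) and Pcsk2 (2 UMIs) passed the level filter only through the chromaffin-like cells, and the interval of Vgf reached 0.503. The ratio differed between members. Chga was at 0.0217 of the chromaffin level (0.0178 to 0.0263), Chgb at 0.0392 and Scg2 at 0.0595, whereas Scg3 was at 0.364 (0.222 to 0.564) and Cpe at 0.289 (0.149 to 0.507). The proportions of the members also differed from those in other classes. Scg3 stood to Chga as 0.189 (0.111 to 0.306) in sustentacular-like cells, against 0.0102 in adrenaline, 0.026 in noradrenaline and 0.0203 (0.0081 to 0.0423) in endothelial-like cells. Pcsk1n stood to Chga as 0.604 (0.436 to 0.831), against 0.105, 0.279 and 0.29 in the same classes. Of the 177 cells, 107 had no UMI of Chga, Chgb or Scg2, and in these 8 cells had a UMI of Scg3, which is 65.3 CPM (28.2 to 129). The same selection left Scg3 at 0.314 (0.102 to 0.732) in 2620 cortex-like cells, 0.235 (0.00595 to 1.31) in 1667 endothelial-like cells and 0 of 474 immune-like cells. Pcsk1n was at 49.0 (18.0 to 107) in these sustentacular-like cells, Scg5 and Cpe at 40.8 each (13.2 to 95.2), and the cortex-like cells had 4.83 of Pcsk1n and 1.94 of Scg5. The immune-like cells had 15.6 of Pcsk1n (8.75 to 25.8). In 55 such fibroblast-like cells Scg3 and Scg5 were at 7.23 each (0.183 to 40.3) and Pcsk1n at 21.7 (4.47 to 63.4), with intervals that overlap the sustentacular-like ones. Median depth after this selection was 1039 UMIs in sustentacular-like and 5065 in cortex-like cells. The part of free RNA in these values was not tested. The counts are small, at 5 to 8 UMIs a gene in the sustentacular-like and 1 to 3 in the fibroblast-like cells. The 18 sustentacular-like cells richest in members held 80.6% of the 813 member UMIs of the class. Th, a chromaffin marker, had 110 CPM in the sustentacular-like class.

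Cpe (chr8:64592542-64693054) was the member least tied to the medulla. Fibroblast-like cells had 208 CPM, adrenaline cells 194, transitioning adrenaline-like cells 174, cycling cells 162, transitioning noradrenaline-like cells 142, cortex-like cells 137 and noradrenaline cells 122. No neighbours in this order differed beyond counting error. Classes farther apart in it did, as between adrenaline (184 to 205) and cortex-like cells (132 to 141) and between adrenaline and noradrenaline cells. Sustentacular-like cells had 53.0, immune-like cells 23.9 and endothelial-like cells 9.08. The ratio of Cpe to Chga was 0.00824 in adrenaline and 0.0122 in noradrenaline cells, but 2.46 (2.31 to 2.62) in cortex-like and 0.265 (0.194 to 0.358) in fibroblast-like cells, and 0.151 (0.11 to 0.202) in endothelial-like cells. In the 2620 cortex-like cells with no UMI of Chga, Chgb or Scg2, Cpe was at 131 (125 to 137), and in 55 such fibroblast-like cells at 246 (170 to 344).

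Within the cortex-like cells Cpe was unevenly spread over 4 clusters. The cluster of 764 cells that was led by Ecrg4, Ly6d and Wnt4 had 494 CPM (475 to 515) and a Cpe UMI in 75.7% of its cells, which is 2.55 times the adrenaline level (2.38 to 2.72). The cluster of 898 cells with Cyp11b1 and Mc2r among its leading genes had 102 (94.3 to 111), and the cycling cortex-like cluster of 358 cells had 72.8. The largest cluster, 1698 cells led by Pik3c2g, Apoc1 and Akr1c18, had 9.28 (7.52 to 11.3), so that the first cluster was 53.3 times higher (43.5 to 66.0). Chga was at 98.5, 40.7 and 20.3 in the first, second and largest cluster, which is the same order as for Cpe over a narrower range, and at 126 in the cycling cluster, which broke it. Thinned to 1000 UMIs, a Cpe UMI was found in 36.6% of the first cluster, 9.03% of the second, 6.70% of the cycling and 1.06% of the largest cluster. Pcsk2 was also found in the largest cortex-like cluster, at 46 UMIs against 212 of Chga, a ratio of 0.217 (0.154 to 0.30), compared with 0.00339 in adrenaline cells and 0.0083 in the cluster with the most Cpe. In the largest cluster Pcsk2 was at 4.4 CPM (3.22 to 5.87), and in the cycling cortex-like cluster it was at 4.03 (2.20 to 6.76).

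**Figure D5:**
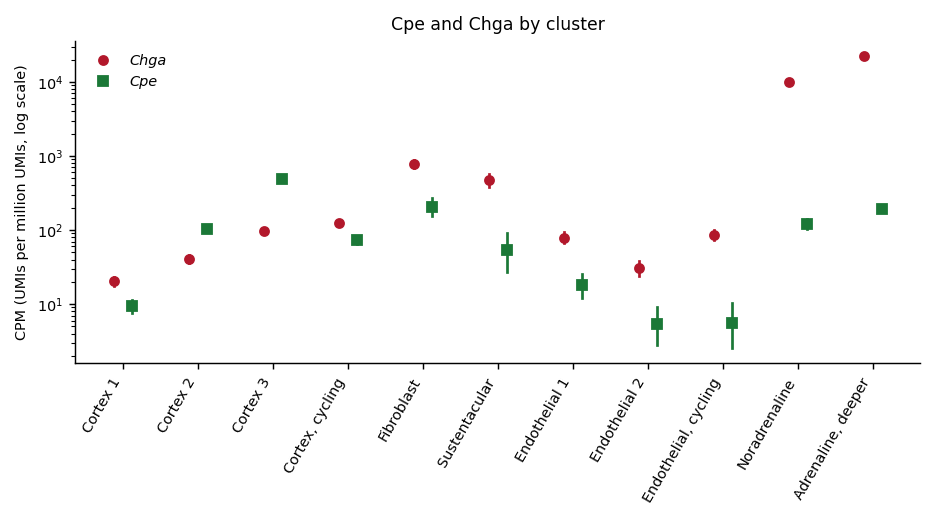
Cpe (squares) and Chga (circles) in CPM on a log scale by cluster, with exact 95% counting intervals; Cortex 1 is the cluster led by Pik3c2g, Cortex 2 that with Cyp11b1 and Cortex 3 that led by Ecrg4. Cpe exceeds Chga in Cortex 2 and Cortex 3, and lies far below it in the noradrenaline and the deeper adrenaline cluster.

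The mice were of both sexes, and 281 adrenaline cells with a Xist UMI and no UMI of 4 Y-linked genes were set against 677 with a Y-linked UMI and no Xist UMI. The median depths were 3087 and 4419 UMIs, 702 of the 1672 cells carried neither, and the number of mice behind each side is unknown. By a size rule of a 25% difference Scg2 and Pcsk2 were higher in female cells, against 3.03% of 3007 genes. No member was lower by that rule, against 6.92% of these genes. Scg2 was at 9012 CPM in female and 6764 in male cells, a ratio of 1.33 (1.30 to 1.36), and the ratio was 1.24 in the shallower, 1.36 in the deeper and 1.255 in the stress-response cluster. Scg2 was thus higher in female cells in each of the adrenaline clusters. The study had already reported more Scg2 in female adrenaline cells of this same library. Pcsk2 had 98.9 and 78.9, a ratio of 1.253 (1.00 to 1.56). Pcsk1n (1.16), Scg5 (1.14), Chga (1.11) and Chgb (1.08) were less far apart, and Scg3, Vgf, Pcsk1 and Cpe were within counting error. The deeper cluster gave 128 of the 281 female and 412 of the 677 male cells. With every cell without a Xist UMI counted as male, the median depths were 3157 and 3165 UMIs. The ratios were then 1.29 for Scg2, 1.28 for Pcsk2, 1.09 for Scg5, 1.07 for Pcsk1n, 1.06 for Chga and 1.05 for Chgb. In the noradrenaline cluster, with 40 and 124 cells, Scg2 had a ratio of 1.10 (1.03 to 1.17), whereas Chgb was lower in female cells at 0.788 (0.769 to 0.807).

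The list of companion genes of the same pathway held 20 names, and 10 of them passed the level filter between the chromaffin types. Nucb2, the precursor of nesfatin, was the only one past 2-fold, at 136 CPM in adrenaline and 64.0 in noradrenaline cells, a ratio of 2.12 (1.70 to 2.69). Of all tested genes, 4.66% were 2-fold higher in adrenaline cells. Pam, the enzyme that amidates peptide ends, had 349 and 371. Ptprn and Ptprn2, receptor-type phosphatases of the granule membrane, had 362 and 43.7 in adrenaline cells against 3.33 and 0.163 in cortex-like cells. Insm1, a zinc finger factor of neuroendocrine cells, had 62.2 in adrenaline, 52.4 in noradrenaline and 0.285 in cortex-like cells. Rest, a repressor of neuronal genes outside the nervous system, was near 0 in the chromaffin classes and higher in the others. It had 5 UMIs in adrenaline cells (0.681 CPM) and 0 in noradrenaline cells, 7.97 and 5.86 CPM in transitioning noradrenaline-like and transitioning adrenaline-like cells, and 84.0 in sustentacular-like, 62.9 in cortex-like, 84.3 in endothelial-like, 47.7 in immune-like and 141 in fibroblast-like cells. Among these other classes Chgb was at 2169 in fibroblast-like and at 156 in cortex-like cells. The 9 fibroblast-like cells richest in members held 86.9% of the member UMIs of that class. A link between Rest and the granins was not tested. Pcsk5, a convertase of the same family as Pcsk1, had 201 in cortex-like and 1.498 in adrenaline cells. Of the 22 peptide precursors listed, 6 passed the filter. Gal (499 against 2220) and Cartpt (50.8 against 136) were 2-fold lower in adrenaline cells, as were 3.42% of all tested genes. Penk (6.54 against 385) was also past 2-fold. It passed the filter only through the noradrenaline cells, so that it is given for its value and not counted.

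Over the 17 clusters with at least 50 cells, likeness was described by Pearson's r of log2(CPM + 10), among 3824 genes with at least 100 CPM in a cluster. The clusters share 1 library, and r mostly reflects the step between chromaffin and other cells. Chga was most like Dlk1 (0.997) and the marker Th (0.993), Chgb most like Npy (0.992), and Pcsk1n most like Npy (0.998) and Resp18 (0.997). Scg5 was most like Syt1 (0.998) and Pcsk1 most like Slc24a2 (0.993). Vgf and Cpe had weaker leading partners, Hand1 (0.921) for Vgf and Hmgn3 (0.898) for Cpe, and Cpe had the lowest likeness to the other members, between 0.484 with Vgf and 0.605 with Chga.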

How the data were processed

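One library of pooled adrenals was analysed. The authors deposited raw UMI counts per gene and barcode, made with Cell Ranger 4.0.0 on mm10 per the submitters' processing notes, and no normalization had been applied to these counts. Barcodes with 500 to 5000 genes and at most 20% mitochondrial UMIs were kept. They were clustered with Seurat 5.3.0 (R 4.3.3; 2000 variable features without the members and companions, 10 principal components, Louvain resolution 0.4), and medullary clusters were clustered again. A cluster was named from at least 3 markers, each in at least 50% of its cells (25% for sustentacular and cycling markers). Chromaffin and transitioning clusters were split into adrenaline and noradrenaline types by a Pnmt UMI in at least 50% of cells. Doublets were called by Scrublet in scanpy 1.11.5 (expected rate 8%) and kept unless stated.

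Levels were summed UMIs of a class, scaled to CPM. With 1 library no test was made, and the size rule was 2-fold among genes with a pooled level of at least 20 CPM, or 1.25-fold at 50 CPM for sex. The ratio script was tested on simulated counts. Members, gene lists and markers were chosen with earlier results of these data known, and the rule named all members, the listed companions and precursors and the 3 genes most like each member, of which a part is printed. The comparison of transitioning adrenaline-like with adrenaline cells was added after the clusters had been seen. Places of genes are from GENCODE on GRCm38, and promoters from RefSeq. Clustering settings, quality limits, doublets, cell classing, free RNA subtraction and scaling were varied.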

Additional observations from a re-analysis of the deposited data

Results flagged for a closer look

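UMIs of the 10 members also appeared in barcodes outside the named classes, above the level in endothelial-like cells (0.0318% of all UMIs). Of these barcodes, cells in mixed or unnamed clusters could still enter the setting in which each cell was classed singly. They made up 2.19% of the UMIs of the 1075 barcodes outside the quality limits, with a median barcode at 0, and 2.2% of the UMIs of the 789 cells in mixed or unnamed clusters, with a median cell at 1.29%.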

How the results depend on the processing

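No paired analysis was possible because the series holds 1 library. Intervals cover counting error only, and pooled mice leave the spread between animals unknown. Adrenaline cells kept a higher share of member UMIs than noradrenaline cells throughout. The adrenaline and noradrenaline shares were 8.91% and 8.12% with members among the variable features, 8.91% and 7.93% with 30 components, 8.97% and 8.18% with stricter quality limits, 8.85% and 8.36% with cells classed singly, and 9.22% and 7.89% as means over cells. At resolution 0.8 the adrenaline share was 8.98%. Over 15 alternatives, the ratio of adrenaline over noradrenaline cells ran from 2.15 to 2.97 for Pcsk1 and from 1.98 to 3.05 for Chga. Chga missed the 2-fold rule with cells classed singly. Vgf, not counted because of the level filter, ran from 2.89 to 15.5. The direction of Pcsk1n turned for the shallower cluster alone (1.23), and that of Chgb with transitioning noradrenaline-like cells joined (1.22, added after the data had been seen). Between the sexes, 0 members were 25% or more higher within the shallower cluster, where Pcsk1n turned to 0.969. Within the stress-response cluster, with 11 female cells, 3 were higher (Vgf, Pcsk1n, Scg2) and 2 lower (Scg3, Pcsk2) by that rule. Pcsk2 turned there to 0.519 on 1 female UMI. The intervals of Vgf (8 female UMIs), Scg3 (7) and Pcsk2 included 1, whereas those of Pcsk1n and Scg2 did not. No share over all genes was taken within these clusters, so that their counts of members cannot be set against other genes. The causes were not tested. No transitioning adrenaline-like class formed with members among the variable features, at resolution 0.2 or with 30 components, and no sustentacular-like or fibroblast-like class with stricter limits. The rule for cells classed singly did not look for a cycling class.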
